A study of Mus musculus with 8 samples.

Results

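The endoplasmic reticulum (ER) chaperones and the genes of the unfolded protein response were followed as 35 genes, taken by symbol from a fixed list of names, out of 56691 genes in a count table of mouse liver RNA. All 35 had 1 row each in the table, and all 35 were among the 14533 genes with enough counts to be tested. The livers came from wild-type C57BL/6J mice, and both groups shared the diet and the injection. Mice aged 6 weeks were kept for 4 weeks on HFD-CDAA, a fat-rich feed with defined amino acids and no choline that is used to bring on metabolic dysfunction-associated steatohepatitis. Plasmid was given by hydrodynamic tail vein injection, in which a large volume reaches the liver, and the animals were killed after a short fast. The control group of 4 libraries received the plasmid plive-Con and the other 4 libraries received plive-Tet1, meant to overexpress Tet1, an enzyme that oxidises 5-methylcytosine in DNA. Libraries are named by plasmid and replicate number, such as plive-Con 4. Whether every library came from its own animal is not stated, and p-values then cover the spread among these libraries, which may be technical.

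The libraries held 15885113 to 19850800 counts. The gene Tet1 collected 1, 9, 6 and 5 counts in the plive-Con libraries and 9, 8, 12 and 5 in the plive-Tet1 libraries, so the counts of the groups overlapped. Replicates 2, 3 and 4 of plive-Tet1 carry Tet2, Tet3 and Tet4 in their treatment label but Tet1 in their titles and protocol, and the titles set the groups. Library plive-Con 4 stood apart on the first principal component of log2 expression (27% of the variance), with a score of 52 where the other libraries lay between -18.97 and 3.72. The hepatocyte marker albumin (Alb) was abundant in every library, from 43840 to 66570 CPM (counts scaled to library size by the TMM method). In such bulk tissue, fewer cells of a type and less RNA per cell cannot be told apart.

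Proteins bound for secretion or for membranes enter the ER through a channel, and chaperones, glycan-binding lectins and disulfide isomerases help them fold there. Misfolded proteins are drawn back out and degraded, a route called ER-associated degradation. When misfolded proteins build up, 3 sensors in the ER membrane, encoded by Ern1 (IRE1), Eif2ak3 (PERK) and Atf6, slow translation and induce chaperone and degradation genes, a program called the unfolded protein response. Hepatocytes secrete most plasma proteins and carry a large ER, and this response has been widely studied in fatty liver.

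Chaperone genes are known for short promoter motifs bound by the factors of this response, and the following stretches show where those letters stood in the members. Promoters were taken from a RefSeq table on build GRCm38.p6, an earlier build than that of the count table, with 250 bases before and 50 after each transcription start. Windows were found for 29 of the 35 genes, and there was none in the table for Atf6, Hyou1, Manf, Sec61a1, Derl1 and Hspa13. The ER stress response element was searched on both strands as CCAAT, 9 bases of any kind and CCACG. It was present in 9 of the 29 genes (31.0%) and in 37 of all 27025 genes of the table (0.137%). Hspa5, which encodes BiP, the main Hsp70 chaperone of the ER, and Hsp90b1, which encodes GRP94, the Hsp90 of the ER, are shown from 250 bases before the start up to the start. Capitals mark the element, which occurred once for Hspa5 (chr2:34771840-34772089, plus strand), ending 47 bases before the start, and in both orientations for Hsp90b1 (chr10:86705445-86705694, minus strand).
Hspa5: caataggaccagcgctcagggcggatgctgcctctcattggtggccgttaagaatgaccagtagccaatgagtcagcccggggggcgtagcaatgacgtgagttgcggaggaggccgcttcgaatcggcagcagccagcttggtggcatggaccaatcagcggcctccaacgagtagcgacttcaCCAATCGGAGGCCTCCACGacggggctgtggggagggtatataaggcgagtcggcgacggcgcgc
Hsp90b1: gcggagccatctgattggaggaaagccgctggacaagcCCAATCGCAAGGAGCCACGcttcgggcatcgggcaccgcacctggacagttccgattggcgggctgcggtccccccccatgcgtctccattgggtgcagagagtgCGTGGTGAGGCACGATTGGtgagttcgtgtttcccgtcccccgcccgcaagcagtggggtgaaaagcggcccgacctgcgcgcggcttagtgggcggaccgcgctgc

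The other genes with the element are shown with 20 bases on either side, since their flanks differ while the ends of the element do not. They lie at chr8:84847055-84847113 (Calr, minus strand), chr11:50325780-50325838 (Canx, minus strand), chr14:118937807-118937865 (Dnajc3, plus strand), chr15:88819500-88819558 (Creld2, plus strand), chr12:17266471-17266529 (Pdia6, plus strand), chr19:6046512-6046570 (Syvn1, plus strand) and chr10:75893222-75893280 (Derl3, plus strand). For Calr, Creld2 and Derl3 the element runs in the opposite direction, so it reads CGTGG, 9 bases and ATTGG.
Calr: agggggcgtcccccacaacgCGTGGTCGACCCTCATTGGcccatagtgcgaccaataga
Canx: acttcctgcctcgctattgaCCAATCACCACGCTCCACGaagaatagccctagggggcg
Dnajc3: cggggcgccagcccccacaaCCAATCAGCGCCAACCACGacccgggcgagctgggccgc
Creld2: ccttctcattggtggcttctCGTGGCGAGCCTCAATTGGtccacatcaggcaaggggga
Pdia6: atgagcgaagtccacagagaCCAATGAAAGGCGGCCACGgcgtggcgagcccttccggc
Syvn1: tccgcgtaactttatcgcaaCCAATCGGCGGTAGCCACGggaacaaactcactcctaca
Derl3: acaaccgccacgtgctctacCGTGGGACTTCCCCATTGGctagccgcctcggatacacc

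A second form, element II, was searched as ATTGG, 1 base of any kind and CCACG, and was present in 2 of the 29 genes (6.9%) against 12 of 27025 (0.0444%). In Herpud1 (chr8:94386357-94386407, plus strand) it ended 42 bases before the start, and in Dnajb11 (chr16:22857852-22857862, plus strand) it covered bases 8 to 18 past the start. The unfolded protein response element TGACGTGG was found in 1 of the 29 genes (3.45%), Sec24d (chr3:123267450-123267495, plus strand), against 0.714% of all genes. No pair of these motifs overlapped within a printed stretch. A match describes the letters only.
Herpud1: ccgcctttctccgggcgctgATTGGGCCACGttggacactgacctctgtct
Dnajb11: ATTGGCCCACG
Sec24d: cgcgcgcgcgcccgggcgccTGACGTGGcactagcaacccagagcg

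Levels between genes were compared in FPKM, counts scaled to exonic length and library total, as deposited. The mean over the 8 libraries was at least 10 FPKM for 28 of the 35 genes and at least 100 FPKM for 7. The highest was P4hb, a disulfide isomerase that is also a subunit of prolyl 4-hydroxylase and of the triglyceride transfer complex, with 856 ± 82 FPKM (SD, n = 8). Calr (calreticulin, a lectin chaperone) followed with 343 ± 73 FPKM, then Pdia3 with 143 ± 31, Hspa5 with 129 ± 32 and Hsp90b1 with 115 ± 35, all SD over 8 libraries. The ranges of Pdia3, Hspa5 and Hsp90b1 overlapped, so the ranges alone do not order them. Their order within each library was not compared. The sensors were far lower, at 9.65 FPKM for Atf6, 7.68 for Ern1 and 4.78 for Eif2ak3, whereas Xbp1, the transcription factor whose mRNA IRE1 splices, stood at 79.5 FPKM. Gene-level counts do not tell spliced from unspliced Xbp1. The lowest gene was Derl3, a degradation factor known from secretory cells, with 1.66 FPKM and as few as 27 counts in a library, where every other member had at least 168.

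**Figure D1:**
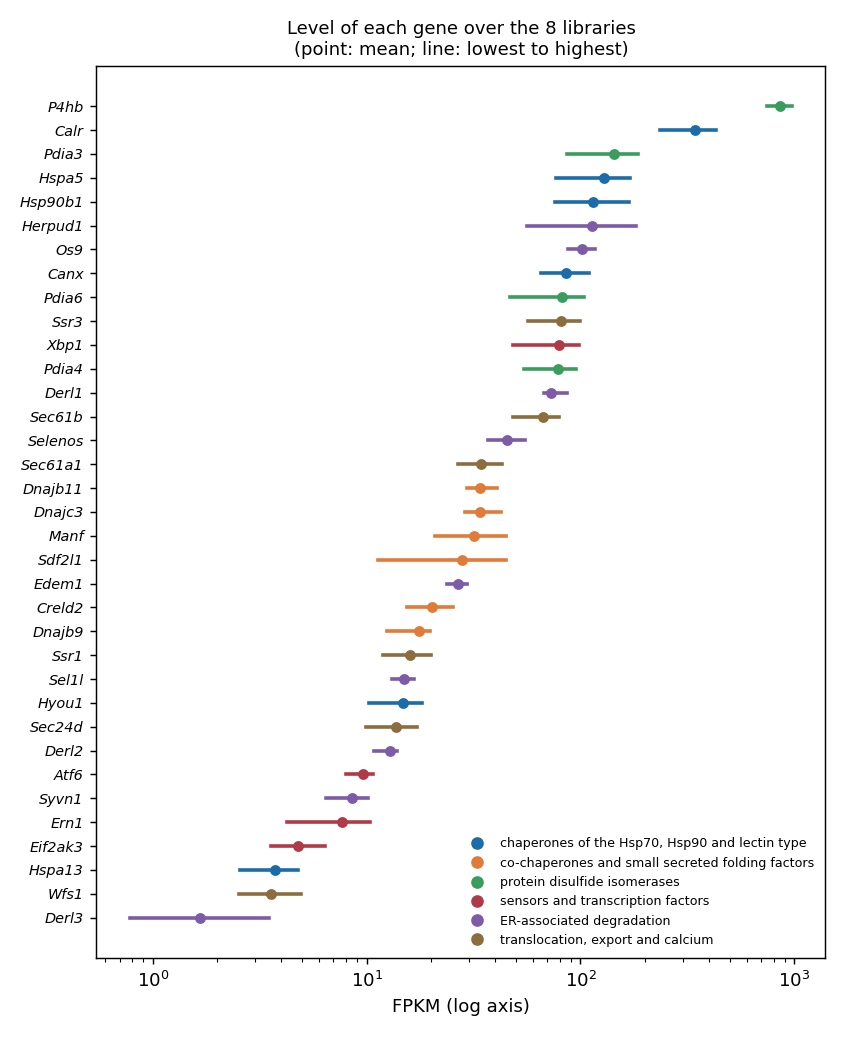
Level of each of the 35 genes in FPKM (horizontal log axis). Points are means over the 8 libraries and lines run from the lowest to the highest library. P4hb stands at the top with 856 FPKM and Derl3 at the bottom with 1.66, and the 3 sensor genes lie under 10 FPKM.

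The design asks whether the Tet1 plasmid changes these genes in livers on HFD-CDAA. Most members had somewhat higher values with plive-Tet1, and none passed the test. With p-values adjusted by Benjamini-Hochberg over 14533 genes, edgeR's quasi-likelihood test called 0 of the 35 members at an adjusted p of 0.05, where the share called among all tested genes was 0.00%. The log2 fold change (plive-Tet1 relative to plive-Con) was above 0 for 29 of the 35 (82.9%), against 52.0% of all tested genes, and its median was 0.12 against 0.008. An unadjusted p under 0.05 was reached by 4 members, all with higher values (Hyou1, Eif2ak3, Sdf2l1 and Pdia4), where 1.91% of all genes reached it with a higher value. The groups did not overlap in 4 members, Hyou1, Dnajb11, Pdia4 and Eif2ak3, again all higher with plive-Tet1, and in 1.30% of all genes. For 33 of the 35 the 95% interval of the fold change lay within a 2-fold change in either direction, the exceptions being Derl3 and Sdf2l1.

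**Figure D2:**
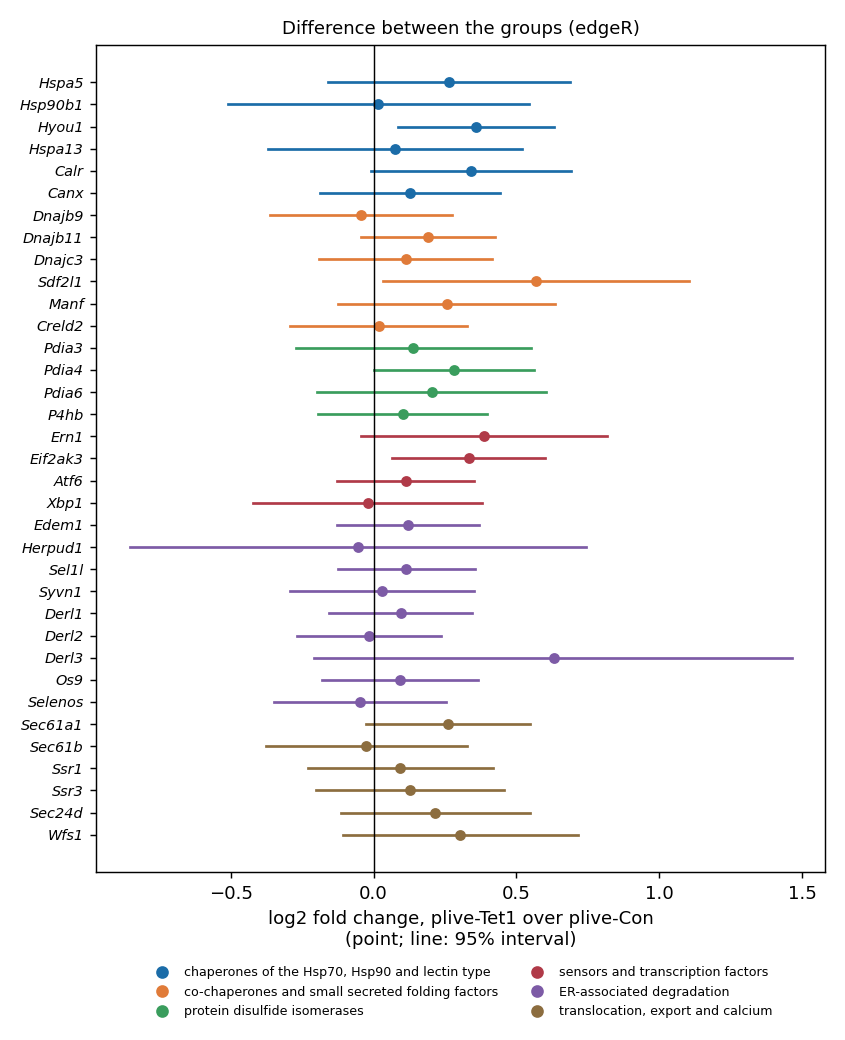
Log2 fold change of each gene in plive-Tet1 against plive-Con, from the edgeR fit (points) with its 95% interval (lines), 4 libraries a group, coloured by role. Of the 35 points, 29 lie to the right of 0, and most intervals cross it.

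A single control library, plive-Con 4, lay low in most members. It had the lowest value of the 8 libraries in 23 of the 35 members (65.7%), and in 19.8% of all tested genes. Library plive-Tet1 1 was highest in 12 members (34.3%) and plive-Tet1 3 in 10 (28.6%), each against 13.5% of all genes. On values standardised per gene, the mean over the 35 was 0.186, -0.189, -0.177 and -1.184 in the plive-Con libraries and 0.714, 0.237, 0.304 and 0.109 in the plive-Tet1 libraries. The first control library therefore lay above plive-Tet1 4, so the sets overlapped. Without plive-Con 4, 26 of the 35 had a higher value with plive-Tet1, the median log2 fold change was 0.11, and 1 member had an unadjusted p under 0.05. Over all genes, 51.6% were then higher, the median was 0.007, and 505 of 14824 had an unadjusted p under 0.05 in either direction. That background covers both directions, unlike the share of higher genes given above for all libraries. A count of 1 member is too small to be read as above or below it. Of the 29 members above 0, 13 had a value over 1.5 times smaller, or below 0, without plive-Con 4. That library was picked for its low values, so smaller differences without it partly follow from the choice. The same count was 10 without plive-Tet1 1, 8 without plive-Con 3 and 8 without plive-Tet1 3. It was 1, 4, 3 and 3 without plive-Con 1, plive-Con 2, plive-Tet1 2 and plive-Tet1 4. Values over 1.5 times larger were seen in 9 members without plive-Con 1 and in 1 without plive-Con 4. The number of members whose groups do not overlap, which can only stay or grow when a library is left out, was again 4 without it, where 2.35% of all genes were in that class.

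**Figure D3:**
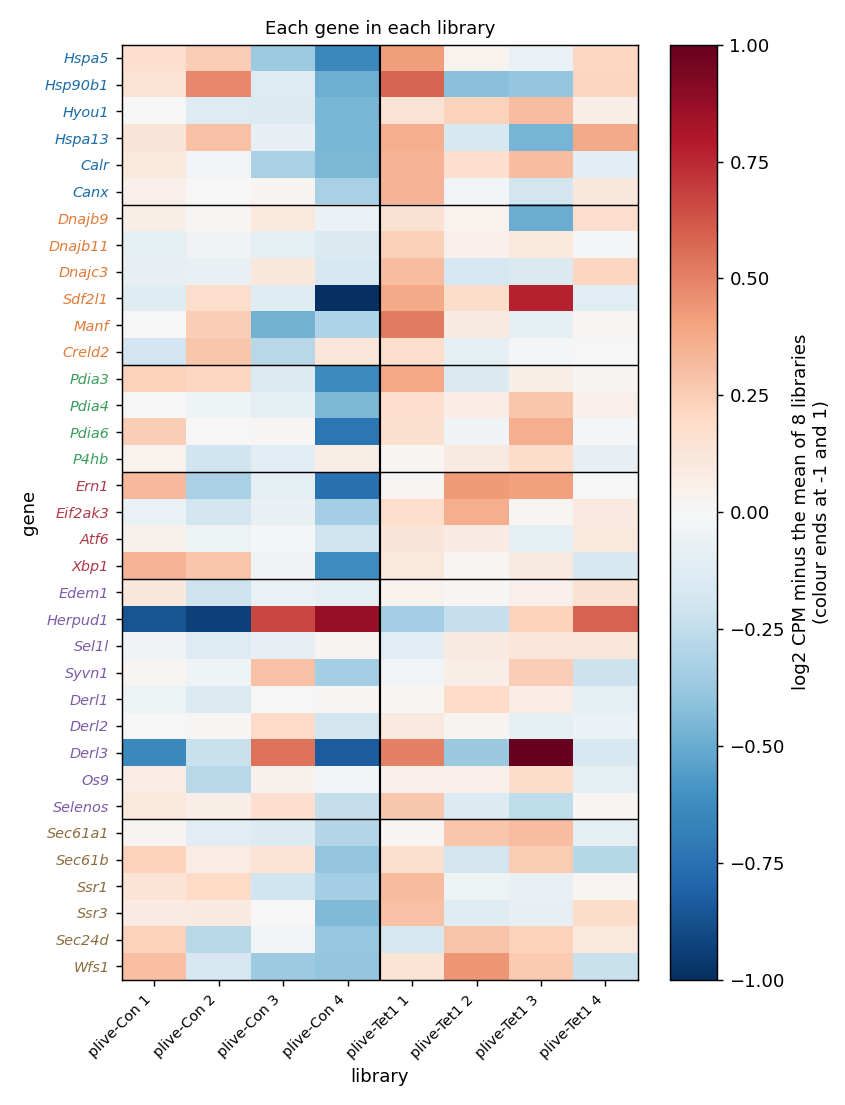
Log2 CPM of each gene (rows, in role groups) in each library (columns), as the difference from the gene's mean over the 8 libraries, with the colour scale ending at -1 and 1. The column of plive-Con 4 is blue in most rows, and the row of Herpud1 runs against most of the others.

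Among the chaperones, all 6 of 6 had a higher value with plive-Tet1, the median log2 fold change was 0.20, and none passed the test. Hspa5 (ENSMUSG00000026864, GRCm39 chromosome 2, 34661982 to 34667559, plus strand) measured 596, 630.0, 412 and 340 CPM in plive-Con 1 to 4 and 709, 544, 508 and 613 CPM in plive-Tet1 1 to 4. The groups overlapped, and the lowest values were those of plive-Con 3 and 4. The log2 fold change of Hspa5 was 0.26 ± 0.20 (SE), with an edgeR p of 0.203 and an adjusted p of 1.0. It was 0.12 without plive-Con 4 and 0.40 without plive-Con 2.

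Hyou1 encodes GRP170, a large Hsp70 relative that releases ADP from BiP, and had the smallest p of the 35. The gene (ENSMUSG00000032115, GRCm39 chromosome 9, 44290787 to 44303666, plus strand) measured 106, 96.8, 96.1 and 76.9 CPM with plive-Con and 116, 124, 131 and 110.1 CPM with plive-Tet1. Every plive-Tet1 library was above every plive-Con library, by a small margin between plive-Con 1 and plive-Tet1 4. Its log2 fold change was 0.36 ± 0.13 (SE), with an edgeR p of 0.0136 and an adjusted p of 1.0.

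Calr measured 1042, 949, 775 and 708 CPM with plive-Con and 1224, 1087, 1196 and 893 with plive-Tet1. Of the plive-Tet1 libraries, plive-Tet1 4 alone lay within the control range, and the log2 fold change of Calr was 0.34 ± 0.16 (SE) with an edgeR p of 0.0544 and an adjusted p of 1.0. Canx (calnexin, the membrane-bound partner of calreticulin), Hspa13 (an Hsp70 of microsomes) and Hsp90b1 had log2 fold changes of 0.13, 0.08 and 0.02. The sign for Hspa13 and Hsp90b1 turned in some alternative fits.

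Of the co-chaperones and small folding factors, 5 of 6 had a higher value, and the median log2 fold change was 0.15. Sdf2l1, a partner of the co-chaperone Dnajb11, measured 26.5, 32.6, 26.6 and 13.0 CPM with plive-Con and 37.5, 32.9, 49.4 and 26.7 CPM with plive-Tet1. The plive-Con 4 value was the lowest, and the groups overlapped only through plive-Con 2 and plive-Tet1 4. The log2 fold change of Sdf2l1 was 0.57 ± 0.25 (SE), with an edgeR p of 0.0387 and an adjusted p of 1.0. It was 0.36 without plive-Con 4 and 0.73 without plive-Con 2.

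Dnajb11 (ERdj3, a J-domain protein that hands unfolded proteins to BiP, ENSMUSG00000004460, GRCm39 chromosome 16, 22676595 to 22698384, plus strand) measured 103, 107, 102 and 99.0 CPM with plive-Con. It measured 129, 114, 118 and 108 CPM with plive-Tet1. The groups did not overlap on this scale, but they did on library totals without TMM and in the deposited FPKM. Its log2 fold change was 0.19 ± 0.11 (SE) with an edgeR p of 0.103. The other 4 members of the set were Manf, a secreted ER stress factor, Dnajc3 (p58IPK), Creld2 and Dnajb9 (ERdj4), with log2 fold changes of 0.26, 0.11, 0.02 and -0.04. None of these had a p under 0.05.

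All 4 disulfide isomerases had higher values with plive-Tet1, and the median log2 fold change was 0.17. Pdia4 (ERp72, ENSMUSG00000025823, GRCm39 chromosome 6, 47773075 to 47790364, minus strand) measured 186, 181, 175 and 136 CPM with plive-Con and 209, 196, 226 and 193 CPM with plive-Tet1. The groups did not overlap, and the log2 fold change was 0.28 ± 0.13 (SE) with an edgeR p of 0.0491 and an adjusted p of 1.0. Without plive-Con 4 the log2 fold change of Pdia4 was 0.19, and without plive-Con 1 it was 0.33. Pdia6 and Pdia3, the isomerase that works with calnexin and calreticulin, had log2 fold changes of 0.20 and 0.14, and P4hb, the most abundant member, 0.10 ± 0.14 (SE). Without plive-Con 4 the values were 0.04 for Pdia6 and -0.015 for Pdia3, and without plive-Con 1 they were 0.33 and 0.245.

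Of the 4 sensors and transcription factors, 3 had a higher value, and the median log2 fold change was 0.22. Eif2ak3 encodes PERK, the kinase that phosphorylates the translation factor eIF2 alpha, and lies on GRCm39 chromosome 6 from 70821499 to 70882229 on the plus strand (ENSMUSG00000031668). It measured 27.2, 25.1, 27.0 and 22.4 CPM with plive-Con and 32.2, 36.7, 28.8 and 30.4 CPM with plive-Tet1. The groups did not overlap, and the log2 fold change was 0.33 ± 0.12 (SE) with an edgeR p of 0.0187 and an adjusted p of 1.0. Ern1 measured 75.9, 48.3, 56.6 and 36.1 CPM with plive-Con and 61.0, 81.5, 80.4 and 60.9 CPM with plive-Tet1. Library plive-Con 1 lay among the plive-Tet1 values, and the log2 fold change of Ern1 was 0.39 ± 0.20 (SE) with an edgeR p of 0.0739. Without plive-Con 4 the value for Ern1 was 0.24, and without plive-Con 1 it was 0.59.

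Atf6, the sensor that is cut in the Golgi to free a transcription factor, measured 91.4, 85.7, 88.1 and 77.4 CPM with plive-Con and 97.4, 94.2, 83.2 and 95.4 CPM with plive-Tet1. Its log2 fold change was 0.11 ± 0.11 (SE), and plive-Tet1 3 lay within the control range. Xbp1 measured 320.2, 307, 247 and 163 CPM with plive-Con and 273, 256, 268 and 226 CPM with plive-Tet1. The control libraries enclosed all plive-Tet1 libraries, and the log2 fold change of Xbp1 was -0.02 ± 0.19 (SE), with a sign that turned under library totals, limma and the replicate block.

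**Figure D4:**
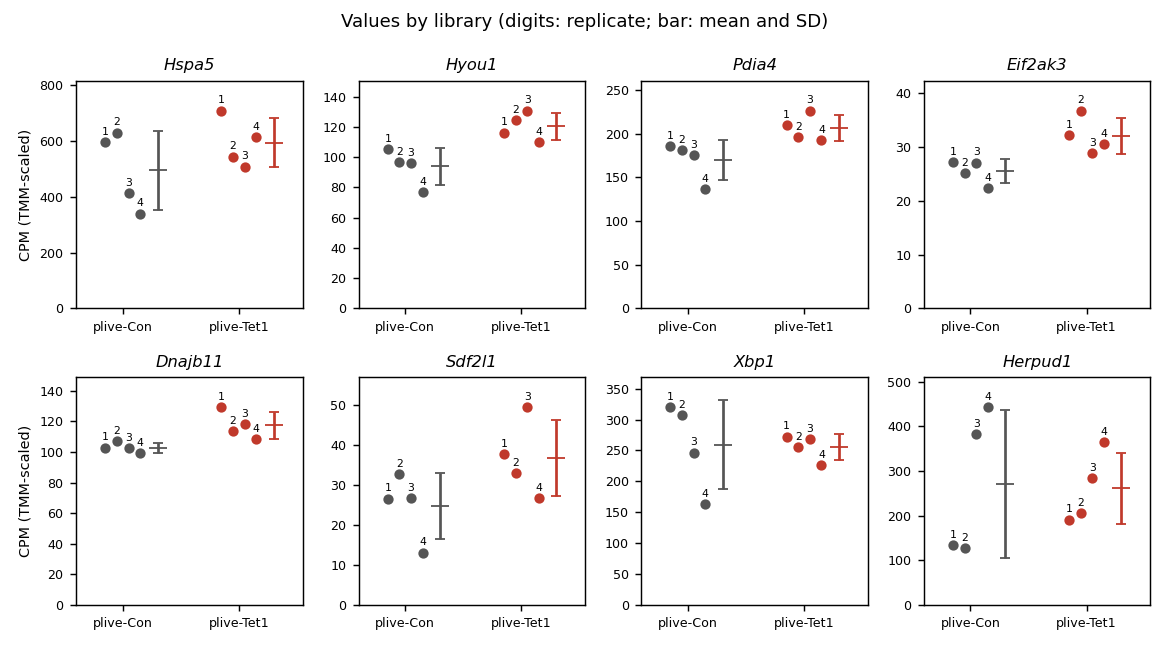
CPM of 8 of the genes in each library (vertical axes from 0, digits are replicate numbers), with the mean and SD of each group of 4 beside the points. The groups do not overlap for Hyou1, Pdia4, Eif2ak3 and Dnajb11, plive-Con 4 is the lowest library in 7 of the 8 panels, and in Herpud1 it is the highest.

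Of the degradation genes 6 of 9 were higher and none had a p under 0.05. The median log2 fold change was 0.09, the lowest of the 6 roles. Derl3 had a log2 fold change of 0.63 ± 0.39 (SE), from 1.61 to 4.36 CPM with plive-Con and 2.26 to 6.89 CPM with plive-Tet1, so the groups overlapped. The value of Derl3 rested on single libraries: it was 0.21 without plive-Tet1 3, 0.46 without plive-Con 4 and 0.98 without plive-Con 3. Edem1 (a mannosidase-like factor), Sel1l and Syvn1 (the adaptor and the ubiquitin ligase HRD1 of the main degradation complex), Derl1 and Os9 (a lectin) ranged from 0.03 to 0.12. Derl2, Selenos and Herpud1 had values of -0.02, -0.05 and -0.055. Of the translocation, export and calcium genes 5 of 6 were higher, with a median of 0.17. Sec61a1, the channel's main subunit, measured 233, 213, 209 and 188 CPM with plive-Con and 232, 278, 284 and 214 CPM with plive-Tet1, with the groups overlapping and a log2 fold change of 0.26 ± 0.13 (SE), an edgeR p of 0.0724 and an adjusted p of 1.0. Wfs1 (wolframin, linked to ER calcium), Sec24d (a coat subunit of export vesicles), Ssr3, Ssr1 (subunits of the translocon-associated complex) and Sec61b had log2 fold changes of 0.30, 0.22, 0.13, 0.09 and -0.03.

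Members with and without an ER stress response element of either form had medians close to each other. The 11 genes with the ER stress response element or element II had a median log2 change of 0.13, with 10 of 11 above 0 and none at an unadjusted p under 0.05. The 18 genes with a window and neither element had a median of 0.12, with 13 of 18 above 0 and 3 at an unadjusted p under 0.05, all higher. Sec24d, with the TGACGTGG motif, is among the 18. Over all genes, 1.91% had a higher value at an unadjusted p under 0.05. These are counts, and the difference between the sets was not tested.

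How the members varied across libraries, apart from the groups, was read against Hspa5. Pearson r of log2 CPM with Hspa5 over the 8 libraries was above 0 for 29 of the 34 other members, with a median of 0.52 against 0.067 for all genes. By a two-sided exact permutation test over all pairings of the 8 libraries, adjusted over 14532 genes, 0 members passed an adjusted p of 0.05, where 0.0551% of all genes did. An unadjusted p under 0.05 with r above 0 was reached by 10 of the 34, where 7.64% of all genes reached it. The relation rested in part on plive-Con 3 and plive-Con 4, the libraries farthest from the median of Hspa5. Without them the median r of the members was -0.114 against -0.004 for all genes, and 14 of the 29 members with r above 0 had r below 0. The share of all genes that turned in this way was not counted.

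In 7 members r was at least 0.7 with all libraries, without those 2 libraries and within groups (each group centred on its mean). How many of all genes met the same bounds was not counted, so the 7 cannot be read against a background. Ssr1 stood first, with r = 0.955 (exact permutation p = 9.92e-05, adjusted p = 0.0693), Spearman's rho = 0.976 (exact permutation p = 0.000397, adjusted p = 0.105), 0.925 without the 2 libraries and 0.974 within groups. Pdia3 had r = 0.916 (exact permutation p = 0.00154, adjusted p = 0.115) and rho = 0.786 (exact permutation p = 0.0279, adjusted p = 0.275), with r of 0.761 without the 2 libraries. Manf, Ssr3, Hspa13, Canx and Hsp90b1 had r between 0.784 and 0.876 with all libraries, and between 0.858 and 0.945 without the 2. These genes are chaperones, an isomerase, a secreted factor and 2 subunits of the translocon-associated complex.

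Examples from the 14 members whose r turned below 0 follow, with no rule set for the choice. Hyou1 went from r = 0.62 with all libraries to -0.572 without plive-Con 3 and plive-Con 4, Pdia4 from 0.71 to -0.348, Calr from 0.747 to -0.107, Ern1 from 0.492 to -0.702 and Sec61a1 from 0.379 to -0.764. Over all libraries the exact permutation p was 0.102 for Hyou1, 0.0508 for Pdia4, 0.0329 for Calr, 0.214 for Ern1 and 0.355 for Sec61a1. Calr alone was under 0.05 before adjustment. Within groups, with all libraries, r was 0.481 for Hyou1, 0.618 for Pdia4, 0.668 for Calr, 0.321 for Ern1 and 0.12 for Sec61a1. For these genes the positive r rests on the 2 control libraries, which also hold the lowest Hspa5 values, so leaving them out narrows the range of Hspa5. Hyou1 and Pdia4 are also among the members whose groups did not overlap.

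**Figure D5:**
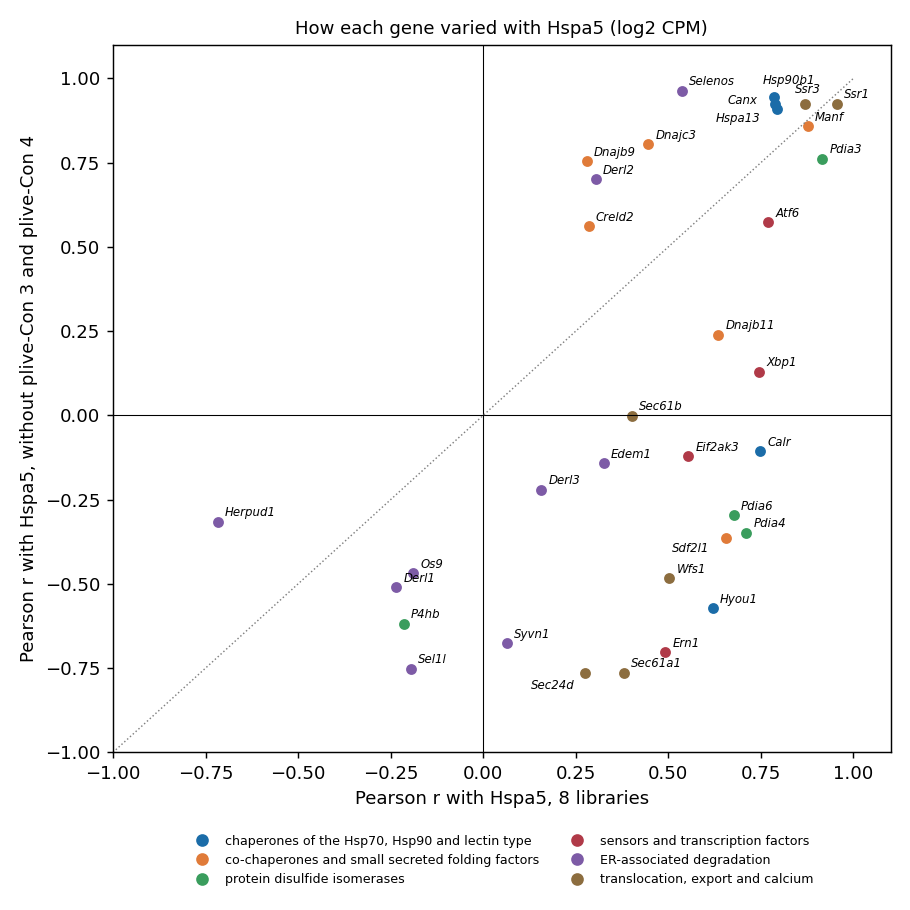
Pearson r of each gene with Hspa5 on log2 CPM over all 8 libraries (horizontal axis) and over the 6 left without plive-Con 3 and plive-Con 4 (vertical axis), with the dotted line marking equal values. Ssr1, Pdia3, Manf, Ssr3, Hspa13, Canx and Hsp90b1 lie at the upper right, Hyou1, Ern1 and Sec61a1 at the lower right, and Herpud1 farthest to the left.

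Over all tested genes, the 10 with the highest r with Hspa5 were Apobec1, Gm36161, Poglut2, Dpysl3, Bst1, Anxa1, Ly86, Cib3, Vwa5a and Cd300ld, with r from 0.961 to 0.989 over 8 libraries, and none of them is a member. Summed markers of macrophages stood at 2265, 1983, 1681 and 1734 CPM in plive-Con 1 to 4 and 2697, 2301, 2112 and 2360 CPM in plive-Tet1 1 to 4. Most of that sum was Lyz2, Gpnmb and Cd5l, and the list was mixed. Lyz2 was lowest in plive-Con 3 and plive-Con 4 (837, 741, 518 and 434 CPM with plive-Con, and 1197, 897, 741 and 772 CPM with plive-Tet1), as Hspa5 was. Clec4f, a marker of resident Kupffer cells, was highest there (153, 165, 231 and 219 CPM, and 134, 133, 171 and 161 CPM). Summed stellate and fibroblast markers were also low in those libraries, at 1099, 1165, 705 and 704 CPM with plive-Con and 1106, 1036, 1020.0 and 983 CPM with plive-Tet1. Most of that sum was Col3a1, Dcn, Col1a2 and Col1a1, and this list was mixed too. Col3a1 was lowest in plive-Con 3 and plive-Con 4 (182 and 171 CPM). Des, in contrast, was highest in plive-Con 4 (12.7 CPM), and Lrat was lowest in plive-Tet1 3 (15.4 CPM). The part of these cells in the values of Hspa5 was not tested.

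Herpud1, Derl1, P4hb, Sel1l and Os9 were the 5 members with a negative r with Hspa5. For the other 4 it was between -0.235 and -0.19 over all libraries, between -0.627 and -0.43 within groups and between -0.752 and -0.469 without plive-Con 3 and plive-Con 4. None of those 4 had an unadjusted p under 0.05 by the exact permutation test.

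Herpud1 had the lowest r of the 35 over all libraries and was singled out after its values had been seen. It encodes a ubiquitin-like membrane protein of the degradation complex (ENSMUSG00000031770, GRCm39 chromosome 8, 95113066 to 95122005, plus strand). It measured 133, 126, 383 and 443 CPM in plive-Con 1 to 4 and 191, 206, 284 and 364 CPM in plive-Tet1 1 to 4. The high libraries were plive-Con 3, plive-Con 4 and plive-Tet1 4, in both groups, and the log2 fold change of -0.055 ± 0.37 (SE) was small beside that spread. With Hspa5 its r was -0.717 (exact permutation p = 0.0442, adjusted p = 0.309), rho was -0.762 (exact permutation p = 0.0368, adjusted p = 0.302), and r was -0.315 without plive-Con 3 and plive-Con 4 and -0.859 within groups.

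Herpud1 ran parallel to Pck1, a gene of the fasting and feeding list. Pck1, the gluconeogenic enzyme PEPCK induced on fasting, measured 1726, 1471, 3178 and 3979 CPM with plive-Con and 1700.0, 1848, 2300.0 and 2839 CPM with plive-Tet1. Its order of the libraries was almost that of Herpud1, with r = 0.954 (exact permutation p = 0.000372, adjusted p = 0.0948) and rho = 0.976 (exact permutation p = 0.000397, adjusted p = 0.118). That r was 0.945 without plive-Con 3 and plive-Con 4, again the farthest libraries, and 0.99 within groups. Pck1 was also chosen after seeing the data.

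Against Pck1, 6 of the 35 members had a negative r at an unadjusted p under 0.05 (background 6.67%) and 1, Herpud1, a positive one (background 7.03%). None passed after adjustment, and 0.00% of all genes did. Xbp1 had r = -0.874 (exact permutation p = 0.00179, adjusted p = 0.124) and rho = -0.881 (exact permutation p = 0.00724, adjusted p = 0.207), with r = -0.817 without the 2 libraries. Hspa5 had r = -0.834 (exact permutation p = 0.00853, adjusted p = 0.198) and rho = -0.833 (exact permutation p = 0.0154, adjusted p = 0.271), but r = -0.363 without them. The summed fasting and feeding list, with 9 of its 10 genes in the table, ranged from 2386 to 8938 CPM with plive-Con and from 3325 to 5562 CPM with plive-Tet1, and plive-Con 4 was highest. The part of feeding state in the low member values of plive-Con 4 was not tested.

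Other genes of the pathway were taken as 6 lists, and none of their genes passed the test. Of the PERK branch and integrated stress response, 12 of 14 had a higher value with plive-Tet1, and the median log2 fold change was 0.21. Psat1, an enzyme of serine synthesis, measured 18.7, 15.5, 11.6 and 13.9 CPM with plive-Con and 18.0, 20.8, 22.5 and 18.3 CPM with plive-Tet1, a log2 fold change of 0.42 ± 0.16 (SE) with an edgeR p of 0.0214. Atf3, a stress-induced transcription factor, measured 40.0, 41.4, 27.3 and 27.8 CPM with plive-Con and 62.7, 55.7, 37.9 and 36.0 CPM with plive-Tet1, a log2 fold change of 0.49 ± 0.20 (SE) with an edgeR p of 0.0301. Both overlapped between the groups, and Asns (asparagine synthetase) followed with 0.38 ± 0.21 (SE) and an edgeR p of 0.0864. The share of all genes with an unadjusted p under 0.05 and a higher value, 1.91%, is the background for these too.

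Of the other translocation and oligosaccharyltransferase subunits 19 of 20 had a higher value, with a small median of 0.10. Ostc, Stt3b and Stt3a, subunits of the enzyme that attaches N-glycans, had log2 fold changes of 0.19, 0.18 and 0.21. Of the other glycoprotein folding and degradation factors 13 of 15 were higher, with a median of 0.11, and the smallest p-values were those of Uggt1 (the glucosyltransferase that senses folding, log2 fold change 0.18), Ube2j1 (0.13) and Ubxn4 (0.14). Of other folding and oxidation enzymes 12 of 16 were higher, with a median of 0.06. Among them Ero1b, an oxidase of disulfide isomerases, was the 1 gene of 16 whose groups did not overlap, where 1.30% of all genes were higher without overlap. It ranged from 67.2 to 71.1 CPM with plive-Con and from 71.6 to 85.6 CPM with plive-Tet1, a narrow gap. Its log2 fold change was 0.16 ± 0.11 (SE), with an edgeR p of 0.154. Dnajc10 and Dnajc1 had log2 fold changes of 0.19 and 0.13.

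Of the COPII coat and cargo receptors, which carry folded proteins out of the ER, 12 of 14 were higher with a median of 0.05, and Mcfd2, Sec13 and Tmed2 had log2 fold changes of 0.15, 0.14 and 0.13. Of other regulators of the response 6 of 10 were higher with a median of 0.08, and the smallest p-values were those of Creb3l2 (log2 fold change 0.26), Mbtps1 (the protease that cuts Atf6, 0.17) and Atf6b (0.19).

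Markers of other liver cells were read beside these values. Summed macrophage markers were 1681 to 2265 CPM with plive-Con and 2112 to 2697 CPM with plive-Tet1, with 6 of 10 genes higher. Of the 10, 4 had an unadjusted edgeR p under 0.05, with Gpnmb, Lyz2 and Trem2 higher and Clec4f lower (log2 fold changes 0.71, 0.51, 0.51 and -0.36). Over all genes, 591 of 14533 reached that p in either direction. Summed stellate and fibroblast markers were 704 to 1165 and 983 to 1106 CPM, with 7 of 10 higher. Cholangiocyte markers were 93.9 to 239 and 146 to 358 CPM, with 3 of 6 higher.

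Plasma and B cell markers, from cells rich in ER, were 276 to 458 CPM with plive-Con and 275 to 327 CPM with plive-Tet1, with 1 of 9 tested genes higher. Most of that sum was Sdc1, which hepatocytes also express, and the plasma cell markers Mzb1 and Tnfrsf17 were at or near 0 in every library. Sdc1 had a log2 fold change of -0.011, and Jchain, Igha and Igkc had -1.73, -1.58 and -1.44, with overlapping groups. An unadjusted edgeR p under 0.05 was reached by 5 of the 9, all lower, where 591 of 14533 genes reached it in either direction. None passed after adjustment. Sinusoidal endothelial markers were 321 to 454 and 269 to 377 CPM, with 9 of 10 lower, and T and NK cell markers 18.7 to 61.8 and 21.4 to 28.9 CPM, with 9 of 10 lower. An unadjusted edgeR p under 0.05 was reached by 3 of the 10 endothelial and 6 of the 10 T and NK markers, all lower, and none passed after adjustment. Hepatocyte markers were 93620 to 118100 and 93960 to 117900 CPM. The part of cell makeup in the members' values was not tested.

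For 14 of the 35 members the table holds other genes that overlap them, 24 in all, and 12 members have one on the opposite strand. Overlap was read from the span between gene start and end, introns included, and shared exons were not checked. Since no source used here gives the strand setting of the counting, reads of any exons that such pairs share cannot be told apart. The overlapping gene with most counts relative to the member was Mrpl49 for Syvn1, with a mean of 506 counts against 746.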

How the data were processed

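Liver RNA was sequenced as paired reads, per the labels' protocols. The tools cutadapt 1.9.1, HISAT2 2.2.1 and HTSeq 0.6.1 and the build GRCm39 are named in the submitters' processing notes. The authors deposited raw read counts per gene and FPKM, per the file headers, with the exonic length. The FPKM equalled the count over length and library total within 0.005. No source used here gives strand or counting mode.

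Genes passing filterByExpr were tested with edgeR 4.0.16 (R 4.3.3) quasi-likelihood, TMM scaling and group as the model term, two-sided, with Benjamini-Hochberg adjustment at 0.05. Alternatives used limma 3.58.1, DESeq2 1.42.0 and other filters and scalings. Correlations used log2 CPM with a prior count of 2. The tests were checked on simulated data. Chi-square per degree of freedom between libraries of a group was at least 12.9, so none was a duplicate. Of 30 promoter windows, 26 had their last 25 bases in a transcript of their gene and 0 in reverse. The windows of Sec24d, Dnajc3, Pdia4 and Os9 lacked that match, and stretches of Sec24d and Dnajc3 are printed above.

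Members, lists and tests were chosen with earlier results of these data known. Genes given by library were Hspa5, the sensors, Xbp1, the 8 smallest p and members not overlapping. Of each pathway list the 3 genes with the smallest p were named. Herpud1, Pck1, Lyz2, Clec4f, Col3a1, Des, Lrat and Spp1 were added, and Psat1 and Atf3 given by library, after their values were seen.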

Additional observations from a re-analysis of the deposited data

Results flagged for a closer look

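Of 70 sets of 4 values (35 genes in 2 groups), 2 held a library far from the others, where chance gives about 3.5. Canx in plive-Con 4 stood at 319 CPM, below 398 CPM in the next library and 412 CPM at the other end of the group. Sel1l in plive-Tet1 1 stood at 118 CPM, below 136 CPM in the next library and 138 CPM at the other end.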

How the results depend on the processing

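Over 17 alternatives, 0 members passed an adjusted p of 0.05, and their lowest adjusted p was 0.0686, with no filter on low counts. Over all genes, 132 passed with no filter and 11 with DESeq2, against 0 in the main fit and in the other alternatives, and the cause was not tested. The number of members with a higher value ranged from 26 to 34 of 35 and their median log2 fold change from 0.105 to 0.177. With library totals in place of TMM, 34 were higher, and so were 61.7% of all genes. The members whose groups do not overlap were 3 under library totals or deposited FPKM (2.01% and 1.93% of all genes), without Dnajb11.

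Of 595 member values 46 changed sign, in 12 members, and 23 members kept theirs. Under library totals, the log2 fold change was 0.033 for Derl2, 0.004 for Dnajb9, 0.011 for Herpud1, 0.019 for Sec61b and 0.019 for Xbp1. On log2(FPKM + 0.5) and log2(FPKM + 0.1), it was 0.035 and 0.036 for Derl2, 0.174 and 0.175 for Herpud1, 0.023 and 0.023 for Sec61b, and 0.071 and 0.071 for Xbp1. With limma voom it was 0.127 for Herpud1, 0.025 for Xbp1 and -0.000 for Hsp90b1. With 1 library left out, it ranged from -0.09 to 0.124 for Creld2, -0.075 to 0.026 for Derl2, -0.111 to 0.067 for Dnajb9, -0.291 to 0.287 for Herpud1, -0.209 to 0.197 for Hsp90b1, and -0.049 to 0.195 for Hspa13. It ranged from -0.015 to 0.245 for Pdia3, -0.143 to 0.06 for Sec61b, -0.153 to 0.003 for Selenos, -0.003 to 0.18 for Ssr1, -0.073 to 0.118 for Syvn1 and -0.188 to 0.099 for Xbp1. Correlations with Hspa5 of Ssr1, Pdia3, Manf, Ssr3 and Herpud1 kept their sign within groups, under both other scales and with 1 library left out, between 0.685 and 0.975 for the first 4 and between -0.875 and -0.589 for Herpud1. Without both plive-Con 3 and plive-Con 4 the r of Herpud1 was -0.315.

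Same-numbered libraries showed no shared deviation from their group means, with correlations of 0.008, -0.02, 0.069 and -0.04. Those of differently numbered libraries ran from -0.194 (plive-Con 3 with plive-Tet1 1) to 0.315 (plive-Con 2 with plive-Tet1 1). Such values cannot settle whether animals were paired or handled together. With the replicate block, 0 genes passed, 31 members were higher, and the values of Herpud1 and Xbp1 were 0.126 and 0.023. Depth limits Derl3, with as few as 27 counts in a library.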
